A study of Homo sapiens with 6 samples.

Results

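Notch signalling passes between neighbouring cells: a ligand on one cell binds a receptor on the next, the receptor is cut, and its intracellular part joins the DNA-binding protein RBPJ and switches on target genes. HES and HEY genes are the classic targets and encode repressors of transcription, and NRARP, another target, limits the signal. In the breast the pathway takes part in the choice between luminal and basal cell fates and is often altered in breast cancer. The genes described here were 3 receptors (NOTCH1, NOTCH2, NOTCH3), 3 ligands (JAG1, JAG2, DLL1) and 4 targets (HES1, HES4, HEY1, NRARP), taken by name from the deposited table of counts. These 10 genes were all found among its 33451 rows.

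The table came from MDA-MB-453, an established breast cancer cell line, kept for 5 days either in 100 nM of 25(OH)D, the circulating form of vitamin D, or in the alcohol used as solvent (control). Each group had 3 mRNA libraries of total RNA, both groups used this 1 line, and no genetic change is labelled in these libraries. The study calls the libraries biological replicates without stating that they came from separate cultures, so p-values measure only the spread between these libraries. The libraries held between 33268860 and 40928176 counts, and 3 counts were worth between 0.0720 and 0.0921 CPM (counts scaled to a common library size, with TMM factors). Mitochondrial genes took 7.85% to 7.99% of the counts in control and 8.89% to 9.24% in 25(OH)D.

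The luminal and apocrine breast epithelium markers KRT8, KRT18, EPCAM, FOXA1, ERBB2 and SPDEF were all present, and their RPKM (counts scaled to the exon length and to the library total) summed to 723 to 745 in control libraries and 764 to 769 in 25(OH)D libraries. The 3 basal markers (KRT5, KRT14, TP63) summed to 0.105 to 0.177 RPKM in control and 0.187 to 0.396 in 25(OH)D. They moved apart at low counts. TP63 held 12, 26 and 19 counts in control and 3, 2 and 2 in 25(OH)D. It passed the low-count filter only through its control libraries, so no test of it is given. KRT14 went the other way, from 4, 6 and 1 counts in control to 24, 8 and 12 in 25(OH)D, and was too low to test. KRT5 held 4, 2 and 10 counts in control and 14, 18 and 3 in 25(OH)D and was not called. Fibroblast markers summed to 3.75 to 4.02 RPKM in control and 3.19 to 3.45 in 25(OH)D, nearly all of it COL1A1, with COL1A2 and PDGFRB at or under 16 counts in every library. Of 3 endothelial markers CDH5 had no row, and PECAM1 and VWF together gave at most 0.0546 RPKM. The 3 immune markers summed to 1.87 to 2.61 RPKM in control and 5.90 to 8.62 in 25(OH)D, nearly all of it CD68, a lysosomal gene that tumour cells can also express. CD3E and PTPRC, which define T cells and leukocytes, were at or under 6 counts in every library. In bulk RNA a change in the share of cells that express a gene and a change of RNA per cell cannot be told apart.

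The promoters of HES1 and HES4 are shown because they hold the letters of the RBPJ core (TGGGAA, searched on both strands) where these 2 targets begin. The RefSeq sequences (GRCh38.p14) give the 250 bases before the RefSeq start of the gene, 5′ to 3′ on the strand of the gene, with the core or its longer form GTGGGAA in capitals. They lie at chr3:194135898-194136147 on the plus strand for HES1 and at chr1:1000098-1000347 on the minus strand for HES4.
HES1: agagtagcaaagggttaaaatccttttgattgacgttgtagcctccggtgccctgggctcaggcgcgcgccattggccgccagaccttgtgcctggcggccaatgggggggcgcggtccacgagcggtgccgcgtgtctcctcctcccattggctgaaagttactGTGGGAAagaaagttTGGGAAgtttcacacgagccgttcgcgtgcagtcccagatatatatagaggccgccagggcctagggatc
HES4: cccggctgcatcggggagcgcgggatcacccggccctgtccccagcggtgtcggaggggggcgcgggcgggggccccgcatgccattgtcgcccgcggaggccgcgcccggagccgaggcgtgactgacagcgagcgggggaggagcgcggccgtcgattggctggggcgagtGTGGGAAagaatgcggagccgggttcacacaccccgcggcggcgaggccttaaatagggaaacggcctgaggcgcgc
In HES1 the core began 84 and 70 bases before the start, and in HES4 it began 76 bases before it. The deposited table has these genes start further upstream, so that 75 of the 250 bases of HES4 and 3 of those of HES1 lie inside the gene as counted. For HES4 these bases include all of the TGGGAA core but its first base. A promoter window was at hand for 8 of the 10 genes (not for DLL1 and HEY1), each of 300 bases, of which 250 lie before the start. Among those 8, 2 held TGGGAA (HES1 and HES4), a share near that of all windows. Both also held GTGGGAA, which contains the shorter motif. The window of NRARP, also a target, held 0 matches of TGGGAA. Of all 35116 RefSeq promoter windows, 24.0% held TGGGAA and 6.25% held GTGGGAA. The N box bound by HES proteins (CACNAG, either strand) was in 5 of the 8 windows and in 38.0% of all windows. A repeat of the vitamin D receptor type (GGTCA or GTTCA, any 4 bases, and again GGTCA or GTTCA) was in 0 of the 8 windows and in 0.154% of all windows. A match of letters is a description of the window and does not show that a protein binds there.

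The receptors moved in different directions. NOTCH2 rose and NOTCH3 fell in 25(OH)D, and no change of NOTCH1 was called. NOTCH2 is a broadly expressed receptor, and its gene covers chr1:119911553-120069626 on the minus strand of GRCh38. NOTCH2 stood at 3.42, 3.49 and 3.04 RPKM in control replicates 1, 2 and 3 and at 6.09, 5.63 and 5.51 RPKM in the 25(OH)D replicates. Every 25(OH)D library lay above every control library. Its mean level went from 54.9 ± 3.75 CPM (SD, n = 3) in control to 98.1 ± 5.47 CPM in 25(OH)D, a 1.79-fold rise (log2 fold change 0.84, SE 0.0598, adjusted p = 7.30e-08 by the edgeR quasi-likelihood test with Benjamini-Hochberg adjustment).

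NOTCH2 shares sequence with other genes, which bears on how its reads were assigned. In the GENCODE 29 transcripts, 17.5% of its 100-base windows also occurred in another gene, 14.6% in NOTCH2NLA and 15.9% in NBPF19. The row NOTCH2NL, a partial copy of NOTCH2, held 295, 294 and 255 counts in control and 400, 393 and 381 in 25(OH)D, and it rose as well (log2 fold change 0.61, SE 0.102, edgeR adjusted p = 3.02e-04). The row NBPF19 held 1536, 1349 and 1280 counts in control and 2273, 2520 and 2150 in 25(OH)D. Smaller parts of the NOTCH2 windows occurred in NBPF14 (1.02%) and NBPF26 (0.38%). NBPF14 held 5056, 4569 and 4683 counts in control and 9552, 10562 and 9161 in 25(OH)D. NBPF26 held 6731, 6360 and 6197 counts in control and 13962, 14896 and 14284 in 25(OH)D. With the counts of NOTCH2 and NOTCH2NL summed, the log2 fold change was 0.81. The part of shared reads in the rise of NOTCH2 was not tested, and 82.5% of its windows occurred in no other gene.

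NOTCH3, a receptor best known from vascular smooth muscle and also present in luminal breast cells, is encoded at chr19:15159038-15200981 on the minus strand. Control libraries held 1910, 1619 and 1575 counts of it, against 1107, 1355 and 1093 with 25(OH)D. The groups did not overlap. NOTCH3 fell from 43.8 ± 1.78 to 33.4 ± 1.88 CPM (log2 fold change -0.39, SE 0.0623, adjusted p = 2.09e-04 by the edgeR quasi-likelihood test). NOTCH1 (chr9:136494444-136545862, minus strand), the receptor whose active forms drive T cell leukaemia, held 580, 535 and 484 counts in control and 460, 521 and 433 in 25(OH)D. Its groups overlapped at 13.7 ± 0.526 and 13.3 ± 0.233 CPM, and the difference was not past the test (log2 fold change -0.05, an interval of 2 SE from -0.21 to 0.11, edgeR adjusted p = 0.704). NOTCH4, the receptor of endothelium, was listed at 6, 6 and 8 counts in control and 0, 6 and 6 in 25(OH)D and was too low to test.

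**Figure D1:**
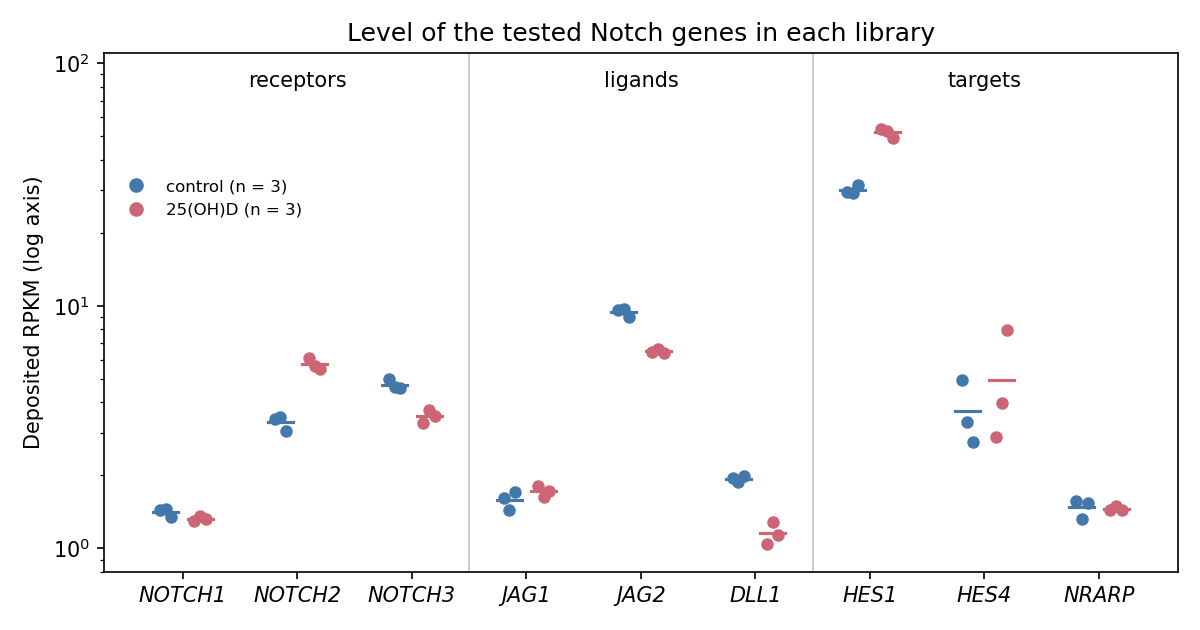
Deposited RPKM of the 9 tested Notch genes (log axis) in the 3 control and 3 25(OH)D libraries; each point is a library and each line a group mean. NOTCH2 and HES1 lie higher in every 25(OH)D library, at 5.51 to 6.09 and 49.2 to 53.7 RPKM, whereas JAG2, DLL1 and NOTCH3 lie lower.

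Per length, the order of the receptors changed between the groups. That order rests on the exon lengths, 16804 bases for NOTCH2 and 9394 for NOTCH3. In CPM, which is not scaled to length, NOTCH2 was above NOTCH3 in control too, at 54.9 ± 3.75 against 43.8 ± 1.78. In control NOTCH3 led at 4.73 ± 0.205 RPKM, followed by NOTCH2 at 3.32 ± 0.241 and NOTCH1 at 1.41 ± 0.0603. In 25(OH)D NOTCH2 led at 5.74 ± 0.309 RPKM, followed by NOTCH3 at 3.50 ± 0.216 and NOTCH1 at 1.33 ± 0.0313. Neither group had an overlap between the libraries of these neighbours in the order. Over all 10 genes the control order was HES1, JAG2, NOTCH3, HES4, NOTCH2, DLL1, JAG1, NRARP, NOTCH1 and HEY1, in which HES4 overlapped NOTCH3 and NOTCH2 and NRARP overlapped JAG1 and NOTCH1. In 25(OH)D the order was HES1, JAG2, NOTCH2, HES4, NOTCH3, JAG1, NRARP, NOTCH1, DLL1 and HEY1, in which only HES4 overlapped its neighbours, NOTCH2 and NOTCH3. The ratio of NOTCH2 to NOTCH3 in RPKM was 0.688, 0.753 and 0.662 in control against 1.85, 1.51 and 1.57 with 25(OH)D. NOTCH2 made up 35.0% ± 1.30 of the summed RPKM of the 4 receptors in control and 54.3% ± 2.44 in 25(OH)D, while NOTCH3 made up 50.0% ± 1.46 and 33.1% ± 2.05. The summed level of the receptors itself was 9.48 ± 0.430 RPKM in control and 10.6 ± 0.211 in 25(OH)D. These shares are described without a test, because they are built from the same levels.

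**Figure D2:**
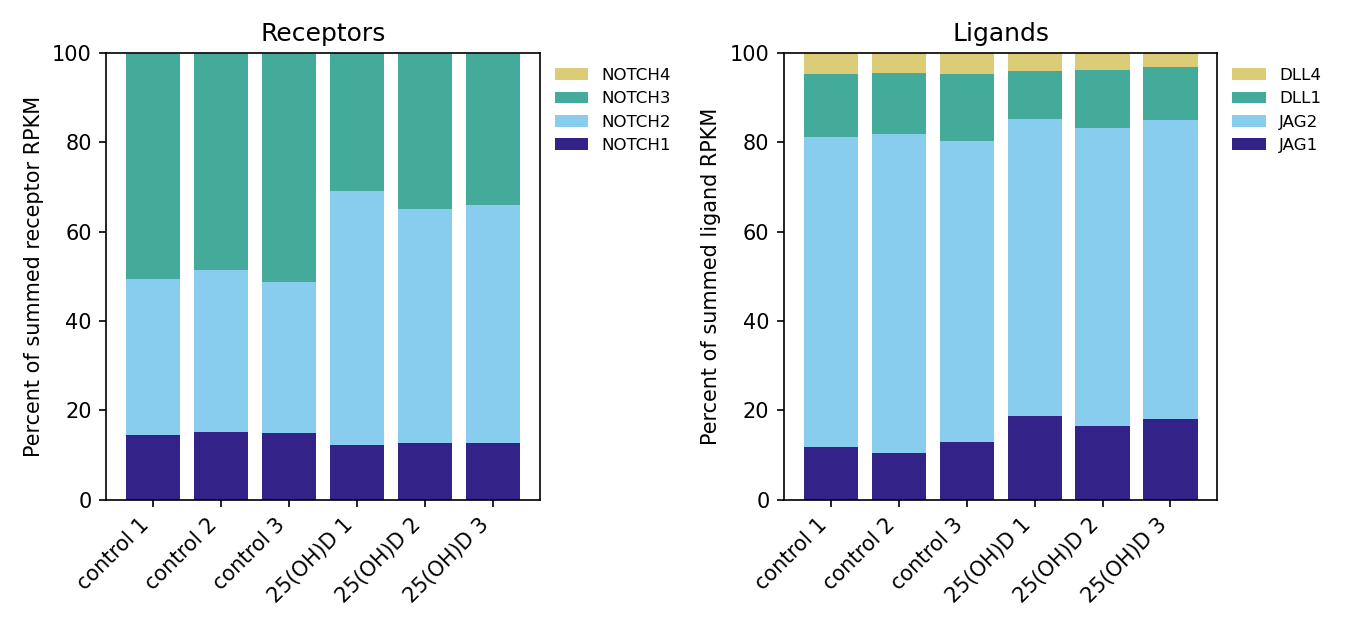
Percent of the summed RPKM that each Notch receptor (left) and each ligand (right) contributed in each of the 6 libraries. NOTCH2 takes 33.8% to 36.4% of the receptor sum in control and 52.5% to 57.0% in 25(OH)D, and JAG2 is the main ligand throughout.

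Among the ligands JAG2 and DLL1 fell, and no change of JAG1 was called. JAG2, a Jagged ligand, is encoded at chr14:105140981-105168824 on the minus strand and was the leading ligand in both groups. It held 2512, 2313 and 2096 counts in control and 1474, 1642 and 1364 counts in 25(OH)D, with no overlap. JAG2 fell from 59.5 ± 2.24 to 42.2 ± 0.469 CPM (log2 fold change -0.50, SE 0.0529, adjusted p = 4.50e-06 by the edgeR quasi-likelihood test). Of its 6397 exon bases, 469 are shared on the same strand with RP11-44N21.4. That row held 300, 258 and 207 counts in control and 169, 215 and 190 in 25(OH)D and was not called (log2 fold change -0.28, SE 0.134, edgeR adjusted p = 0.132). In the GENCODE 29 transcripts 5.73% of the 100-base windows of JAG2 also occurred in AL512356.1.

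DLL1, a Delta ligand, lies at chr6:170282206-170306565 on the minus strand. Its counts were 257, 225 and 235 in control and 120, 161 and 122 in 25(OH)D, so that every control library was higher. DLL1 was 1.63-fold lower in 25(OH)D, at 3.78 ± 0.388 against 6.17 ± 0.217 CPM (log2 fold change -0.70, SE 0.132, adjusted p = 7.82e-04 by the edgeR quasi-likelihood test). JAG1 (chr20:10637684-10674107, minus strand), the other Jagged ligand, held 566, 457 and 532 counts in control and 552, 539 and 490 in 25(OH)D. Its groups overlapped at 13.4 ± 1.20 and 14.9 ± 0.848 CPM (log2 fold change 0.16, an interval of 2 SE from -0.02 to 0.34, edgeR adjusted p = 0.208). The row RP11-103J8.1, which shares 79 exon bases with JAG1 on the opposite strand, held at most 8 counts in any library.

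DLL4, a Delta ligand of blood vessels that is outside the 10 genes, moved the same way as DLL1. It held 126, 107 and 110 counts in control and 66, 69 and 47 in 25(OH)D, and it fell (log2 fold change -0.79, SE 0.187, edgeR adjusted p = 0.00464). The summed RPKM of JAG1, JAG2, DLL1 and DLL4 was 13.6 ± 0.249 in control and 9.71 ± 0.177 in 25(OH)D. JAG2 made up 69.4% ± 1.92 of that sum in control and 66.8% ± 0.210 in 25(OH)D, and JAG1 made up 11.7% ± 1.14 and 17.7% ± 1.16. The ratio of JAG2 to JAG1 was 5.92, 6.75 and 5.26 in control and 3.56, 4.06 and 3.71 in 25(OH)D. DLL3 had no row and was not analysed here.

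Among the targets HES1 rose, while HES4 and NRARP were not called and HEY1 was too low to test. HES1 (chr3:194136145-194138732, plus strand), a repressor of differentiation genes and the most used readout of the pathway, stood at 29.5, 29.0 and 31.6 RPKM in control and 53.7, 52.5 and 49.2 RPKM in 25(OH)D. It was higher in every 25(OH)D library. Its log2 fold change was 0.83 (SE 0.0524, adjusted p = 1.85e-08 by the edgeR quasi-likelihood test), a 1.78-fold rise. HES1 was the most abundant of the 10 genes per length in both groups, above 93.8% of the genes tested by its mean RPKM. The next of the 10 genes, JAG2, lay above 72.6% of the genes tested, and NOTCH1, the lowest of those tested, lay above 33.5%.

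HES4, a close relative of HES1 that mice lack, is encoded at chr1:998962-1000172 on the minus strand. It varied more between libraries of 1 group than between the groups. Its RPKM was 4.96, 3.32 and 2.75 in control and 2.87, 3.99 and 7.93 in 25(OH)D, so that the groups overlapped and 25(OH)D replicate 3 was the highest of the 6. The difference was not past the test (log2 fold change 0.46, an interval of 2 SE from -0.15 to 1.06, edgeR adjusted p = 0.279). Without 25(OH)D replicate 3 the log2 fold change was -0.05, and without the low-count filter the adjusted p was 0.0167. The SD of HES4 within groups, 0.600 on the log2 scale, was above that of 99.2% of 1829 genes of like level. The ratio of HES1 to HES4 ran from 5.95 to 11.5 in control and from 6.21 to 18.7 in 25(OH)D.

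The spread of HES4 was shared with HES6, a HES family member known to counter HES1. HES6 held 868, 388 and 230 counts in control and 280, 488 and 888 in 25(OH)D, and it was not called (log2 fold change 0.34, an interval of 2 SE from -0.45 to 1.14, edgeR adjusted p = 0.552). In log2 deviations from the group mean, HES4 stood at 0.46, -0.10 and -0.36 in control and at -0.63, -0.18 and 0.81 in 25(OH)D. HES6 stood at 0.91, -0.10 and -0.81 in control and at -0.81, -0.14 and 0.95 in 25(OH)D, with the same sign as HES4 in all 6 libraries. Both genes are rich in G and C, at 73.9% for HES4 and 68.4% for HES6, against 49.9% for HES1. The 1480 genes with the highest G and C content had median deviations of 0.0197, -0.0101 and -0.00827 in control and -0.0454, 0.00984 and 0.0396 in 25(OH)D, with the sign of HES4 in 5 of the 6 libraries and a much smaller size. NRARP, with 67.3% of G and C, had an SD within groups of 0.0956. The part of base composition in the spread of HES4 was not tested.

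**Figure D3:**
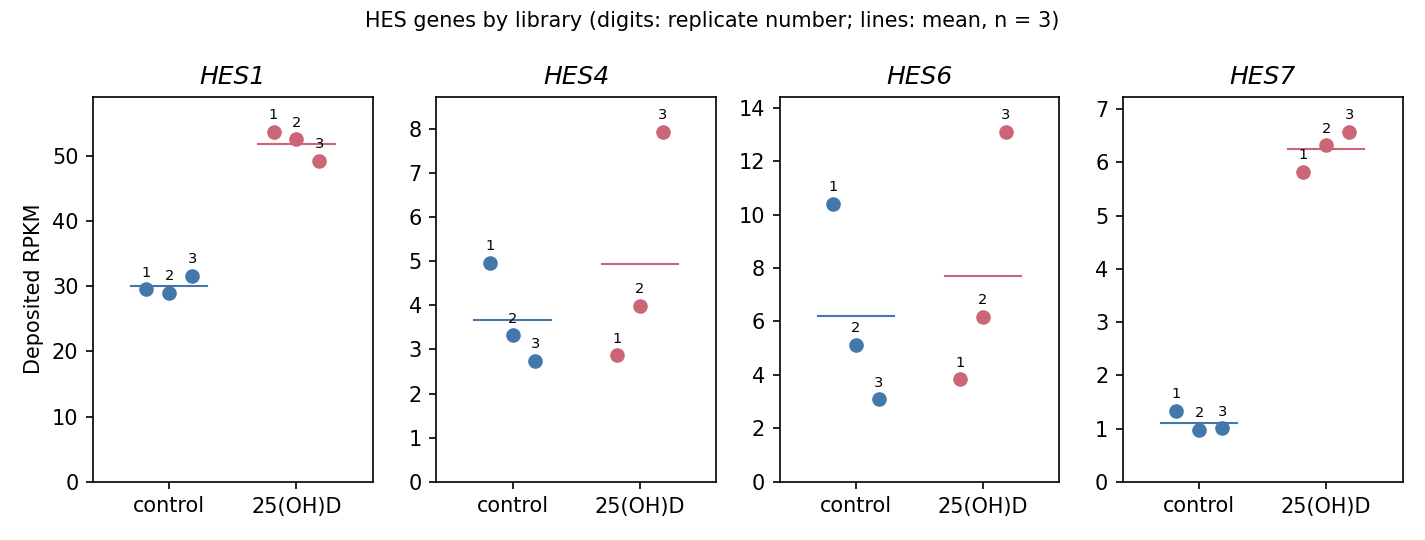
Deposited RPKM of HES1, HES4, HES6 and HES7 in each library, with replicate numbers above the points and lines at the group means (n = 3). HES1 and HES7 separate the groups, whereas HES4 and HES6 overlap, and for both the highest library is 25(OH)D replicate 3 (7.93 RPKM for HES4).

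NRARP (chr9:137300482-137302251, minus strand), a small ankyrin repeat protein that binds the receptor's intracellular part and limits its activity, was not called. It held 114, 87 and 99 counts in control and 91, 103 and 85 in 25(OH)D. Its means were 2.58 ± 0.240 and 2.63 ± 0.0474 CPM with overlapping groups (log2 fold change 0.03, an interval of 2 SE from -0.32 to 0.37, edgeR adjusted p = 0.923). HEY1, a repressor of the related HEY family at chr8:79764010-79767863 on the minus strand, was near the floor of 3 counts. HEY1 held 1, 9 and 14 counts in control and 0, 0 and 2 in 25(OH)D, 24 against 2 in all. Low counts were often even (67.2% of the values from 1 to 20), as when both ends of a read pair are counted, so these are at least 13 pairs against 1. The ratio of 25(OH)D to control was 0.0842 in pairs, with a 95% exact interval from 0.00198 to 0.561 that covers counting error only. Without the low-count filter the edgeR test gave HEY1 an adjusted p of 0.0597. HEY2 showed the same kind of counts, at 16, 6 and 0 in control and 0, 0 and 2 in 25(OH)D (ratio in pairs 0.0995, 95% exact interval 0.00231 to 0.685). The interval of HEY2 also leaves out the spread between libraries.

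Of the 9 Notch genes tested, NOTCH2 and HES1 rose, NOTCH3, JAG2 and DLL1 fell, and 4 were not called. The 5 called genes are 55.6% of the 9 tested, against 33.8% of all 18183 genes tested (17.3% higher and 16.5% lower). The groups did not overlap in the same 5 genes (55.6%), against 45.7% of all genes tested. In each of these 5 genes the two-sided exact permutation test on CPM gave 0.1, the smallest p that 3 libraries against 3 allow. Groups of this size that do not overlap always give that value, so it adds nothing to the lack of overlap. None of the 9 passed the limits the study drew, an absolute log2 fold change over 1 with an unadjusted p under 0.05, which 6.65% of all genes passed. The median log2 fold change of the 9 was 0.03, and that of all genes tested was -0.01 with quartiles of -0.23 and 0.22. The receptor VDR, which binds active vitamin D, rose in the same libraries from 80.8 ± 0.739 to 133 ± 6.16 CPM (log2 fold change 0.72, SE 0.0458, edgeR adjusted p = 1.94e-08).

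**Figure D4:**
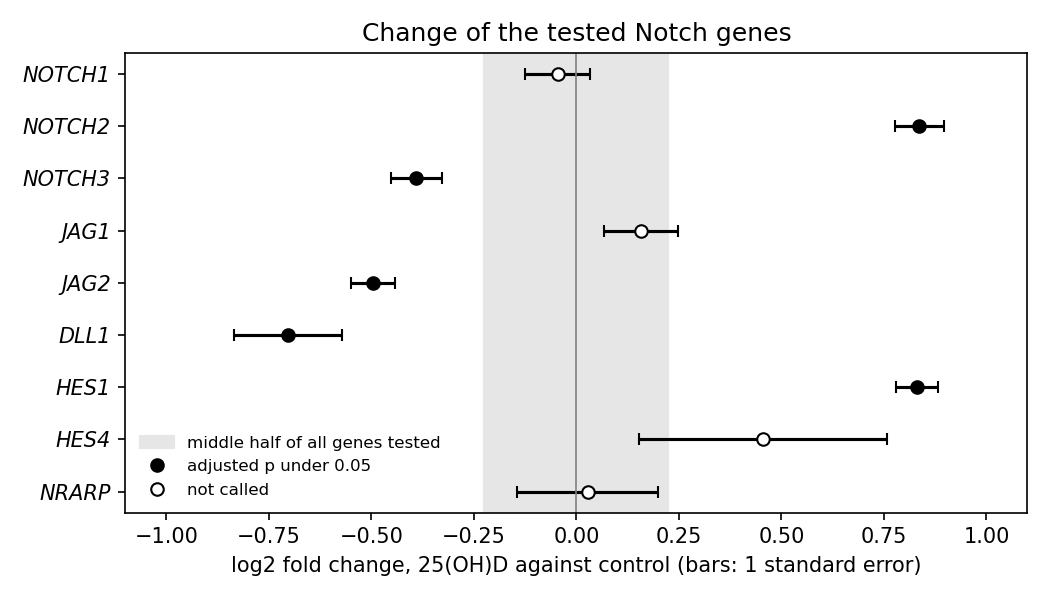
Log2 fold change of 25(OH)D against control for the 9 tested Notch genes, with bars of 1 standard error; filled points passed an adjusted p under 0.05 and the grey band spans the quartiles of all genes tested (-0.23 to 0.22). NOTCH2 (0.84) and HES1 (0.83) lie right of the band, and NOTCH3, JAG2 and DLL1 (-0.39 to -0.70) left of it.

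The wider pathway was described from a list of 63 further genes that process the receptors and ligands or carry the signal in the nucleus. Of these, 61 had a row and 49 could be tested, of which 9 rose, 13 fell and 27 were not called. The 22 called genes are 44.9% of those tested, against 33.8% of all genes, and the groups did not overlap in 61.2% against 45.7%. The median log2 fold change of the 49 was 0.03, with quartiles of -0.25 and 0.12. Of the 49, 3 were past an absolute log2 fold change of 1, a share not above the 6.65% of all genes that passed the study's limits. These 3 were HES7 among the HES genes, FURIN among the proteases and TLE1 among the corepressors.

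HES7, the repressor of the segmentation clock of the embryo, rose the most of all genes on the list. It held 102, 68 and 69 counts in control and 390, 458 and 409 in 25(OH)D. Its level went from 1.11 ± 0.196 to 6.24 ± 0.384 RPKM, a 5.78-fold rise (log2 fold change 2.53, SE 0.138, adjusted p = 3.82e-09 by the edgeR quasi-likelihood test). HES1 was 22.1 to 31.2 times as abundant as HES7 per length in control and 7.48 to 9.22 times in 25(OH)D. HES6 and HEY2 are given above. The remaining HES and HEY genes were low, with HES2 at 2 to 8 counts, HES5 at 0 to 2, HEYL at 0 to 2 and HELT at 0 to 4 in a library, and HES3 was not analysed here.

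Of the 9 proteases that cut the receptor, 3 rose and 1 fell (44.4% called, against 33.8% of all genes tested). FURIN, which cuts the receptor precursor on its way to the surface, held 577, 580 and 491 counts in control and 231, 246 and 206 in 25(OH)D. It was 2.20-fold lower in 25(OH)D (log2 fold change -1.14, SE 0.0960, edgeR adjusted p = 4.14e-07). PSEN2, a catalytic subunit of gamma-secretase, rose from 18.6 ± 0.353 to 25.7 ± 1.15 CPM (log2 fold change 0.47, SE 0.0683, edgeR adjusted p = 9.84e-05). ADAM10, the protease that sheds the receptor's outer part after ligand binding, rose by a log2 fold change of 0.27 (SE 0.0408, edgeR adjusted p = 1.38e-04) and was chosen after its values were seen.

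Of the 5 sugar transferases tested, 2 fell and 3 were not called (40% called, against 33.8% of all genes tested). POFUT1, which adds fucose to the receptor and is needed for ligand binding, fell from 81.9 ± 1.50 to 71.9 ± 2.62 CPM (log2 fold change -0.19, SE 0.0478, edgeR adjusted p = 0.00679), and without 25(OH)D replicate 2 the adjusted p was 0.0564. LFNG, a Fringe enzyme that tunes receptors towards Delta ligands, was chosen after its values were seen and held 121, 104 and 80 counts in control and 56, 56 and 54 in 25(OH)D (log2 fold change -0.74, SE 0.202, edgeR adjusted p = 0.0112). Without control replicate 1 the adjusted p of LFNG was 0.0515.

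Of the 14 ubiquitin ligases and adaptors tested, 4 rose and 3 fell (50% called, against 33.8% of all genes tested). FBXW7, which marks the active receptor for degradation, held 4064, 3765 and 3792 counts in control and 2403, 2655 and 2268 in 25(OH)D, and it fell (log2 fold change -0.54, SE 0.0450, edgeR adjusted p = 4.01e-07). AAK1, a kinase of endocytic adaptors, rose from 23.8 ± 0.939 to 39.1 ± 1.53 CPM (log2 fold change 0.72, SE 0.0631, edgeR adjusted p = 6.44e-07). NUMB, an adaptor that opposes Notch, was among the other genes that rose, at 0.21, as were DTX4 at 0.69 and MIB2, a ligase of the ligands, at 0.26. NEURL1B, another ligase of the ligands, fell at -0.74 and DTX3 at -0.60. These 5 values are log2 fold changes of genes chosen after their values were seen, and the call of MIB2 was lost without control replicate 2 (edgeR adjusted p = 0.0772) or without 25(OH)D replicate 3 (0.0506), and on log2 RPKM values (limma adjusted p = 0.114 and 0.128). DTX1, also chosen afterwards and too low to test, held 10, 4 and 12 counts in control and 0, 2 and 0 in 25(OH)D (ratio in pairs 0.0842, 95% exact interval 0.00198 to 0.561). As for HEY1, that interval covers counting error only and leaves out the spread between libraries.

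In the nucleus, 3 of the 6 tested genes of the activating complex fell and 0 rose (50% called, against 33.8% of all genes tested). SNW1, a coactivator that also takes part in splicing, fell from 349.6 ± 15.2 to 294 ± 2.91 CPM (log2 fold change -0.25, SE 0.0394, edgeR adjusted p = 1.98e-04). MAML1 and MAML3, coactivators that hold the complex together and were chosen after their values were seen, fell by 0.40 and 0.27 on the log2 scale (edgeR adjusted p = 0.00169 and 0.00734). RBPJ itself, at 30.5 ± 1.29 and 28.6 ± 0.715 CPM, was not called (log2 fold change -0.09, edgeR adjusted p = 0.282).

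Of the 11 corepressors tested, 1 rose and 3 fell (36.4% called, near the 33.8% of all genes tested). TLE1, a Groucho family corepressor that HES proteins recruit, held 3953, 3282 and 2685 counts in control and 1246, 1416 and 1139 in 25(OH)D. It was 2.37-fold lower in 25(OH)D (log2 fold change -1.25, SE 0.0796, edgeR adjusted p = 2.11e-08). TLE4 of the same family, chosen after its values were seen, fell from 33.0 ± 1.15 to 17.5 ± 0.405 CPM (log2 fold change -0.92, SE 0.0654, edgeR adjusted p = 7.18e-08), while TLE2 and TLE3 were not called at -0.03 and -0.11. SPEN, a corepressor that binds RBPJ, rose from 325 ± 9.95 to 373 ± 23.1 CPM (log2 fold change 0.20, SE 0.0457, edgeR adjusted p = 0.00412), a call that was lost on log2 RPKM values (limma adjusted p = 0.0726 and 0.0720). The third corepressor that fell, CIR1, at a log2 fold change of -0.13, was no longer called without control replicate 2, control replicate 3 or any 1 of the 3 25(OH)D libraries (adjusted p between 0.0810 and 0.171), nor without the low-count filter (0.0501).

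**Figure D5:**
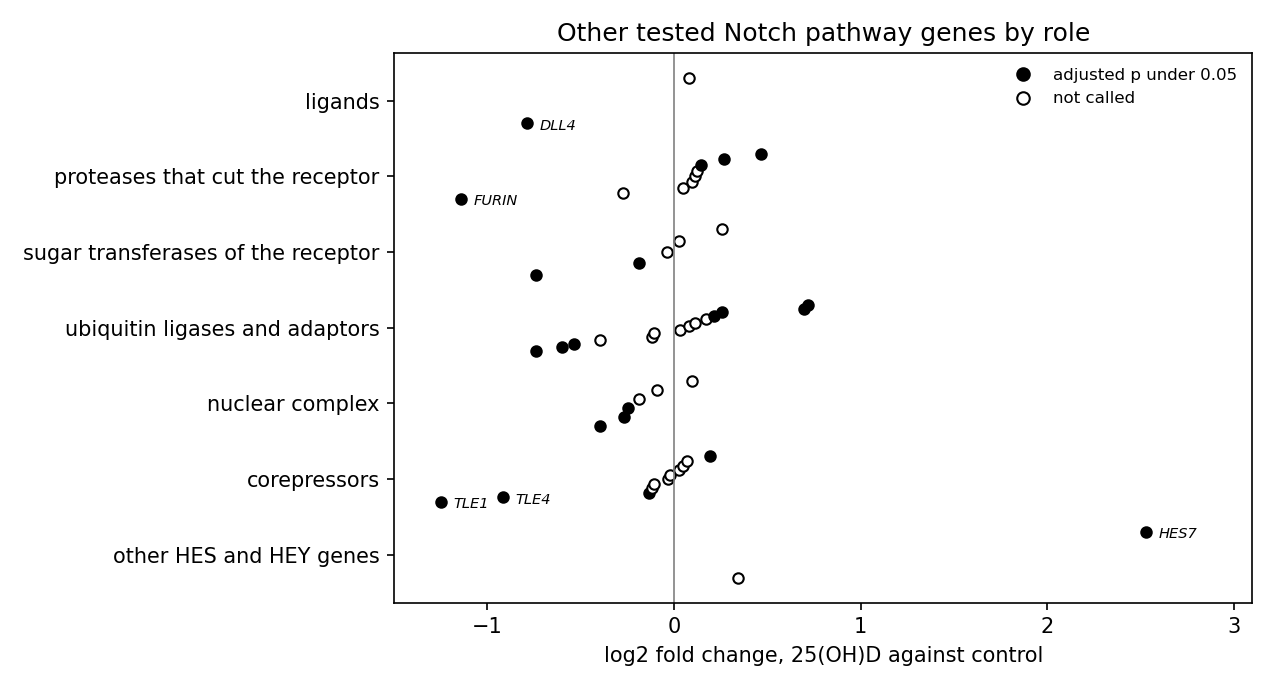
Log2 fold change of 25(OH)D against control for the 49 tested genes of the wider Notch pathway list, grouped by role; each point is a gene and filled points passed an adjusted p under 0.05. HES7 (2.53) stands far to the right, and TLE1 (-1.25), FURIN (-1.14), TLE4 (-0.92) and DLL4 (-0.79) to the left.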

How the data were processed

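Counts and RPKM values of 6 libraries were analysed, with groups and replicate numbers taken from the sample labels. The authors deposited whole-number counts of reads per gene without normalization, and the table lists only genes with at least 1 count. The deposited RPKM values equalled count over exon length and total count (largest relative difference 5.11e-15). Per the submitters' processing notes, the tools were Trimmomatic 0.36, featureCounts of Subread 1.5.1 and edgeR 3.12.1, on GRCh38. The library kit was stranded. For HEY1, HEY2 and DTX1 each 2 counts of a library, or an odd count left over, were taken as 1 read pair. The aligner, the annotation release and the strand setting of the counting are not given in the sources used here.

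Counts were tested in R 4.3.3 with edgeR 4.0.16 (TMM factors, low-count filter at a minimum count of 10, quasi-likelihood test between the groups, no covariates). A gene was called at a Benjamini-Hochberg adjusted p under 0.05 over 18183 genes. The biological coefficient of variation was 0.0788. The step was tested on simulated data. For single values the exact permutation test was two-sided. Alternatives used DESeq2 1.42.0, limma 3.58.1 on log2 RPKM with 1 or 0.1 added, other factors, no filter, a replicate block and omission of each library. Other steps used Python 3.11.15. No replicates were duplicates (chi-square per gene 3.97 to 12.1).

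The genes and lists were chosen with earlier results of these data known. The rule named the 10 genes, rows sharing exon bases with them and NOTCH2NL as a copy by name. From each role it took the gene with the smallest p in each direction. NOTCH4, DLL3, DLL4, the HES and HEY genes, the markers and VDR were also in the rule. RBPJ, CIR1, TLE2 and TLE3 were named outside the rule, after their values were seen. The NBPF rows were also outside the rule. Protein sequences were not analysed here, and further genes of the lists are not reported here.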

Additional observations from a re-analysis of the deposited data

How the results depend on the processing

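The calls of NOTCH2, NOTCH3, JAG2, DLL1 and HES1 kept their direction and stayed past the threshold under all alternatives run, and NOTCH1 and JAG1 stayed uncalled in the same direction. Without the low-count filter 1 of the 10 genes, HEY1, passed the fold limit, against 0 otherwise, and HES4 and HES6 passed the adjusted p (0.0167 and 0.00340). Values near 0 changed sign. NRARP was at -0.0142 with upper-quartile factors, -0.0165 with library sizes alone, -0.0082 on log2(RPKM + 1) and -0.0117 on log2(RPKM + 0.1). With 1 library left out, NRARP ran from -0.042 to 0.0808, HES4 from -0.0506 to 0.7403, HES6 from -0.2632 to 0.9478, and NALT1, near NOTCH1, from -0.0379 to 0.243. NALT1 was at -0.002 on log2(RPKM + 0.1). Adding 1 RPKM shrinks low genes: DLL1 was at -0.45, DLL4 at -0.27, AAK1 at 0.38 and HES7 at 1.78 on that scale, still called. On the longer list 6 to 10 genes rose and 13 to 16 fell over the alternatives with all libraries, and 7 to 9 rose and 11 to 13 fell with 1 library left out. Same-numbered libraries did not deviate together (correlations -0.0800, -0.00849 and -0.0523), so the numbers were not taken as pairs. With the replicate block 2 of the 10 genes rose and 3 fell, as without it, and 3057 and 2896 of all genes against 3138 and 3004. Depth limits HEY1, HEY2 and DTX1, which rest on 22 to 26 control counts.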

Other observations

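The genes beside the Notch genes were read after their values were seen. ISG15, an interferon-induced gene on the opposite strand 965 bases from HES4, held 2512, 1908 and 1761 counts in control and 4577, 4791 and 3575 in 25(OH)D, a 2.30-fold rise (log2 fold change 1.20, SE 0.0811, edgeR adjusted p = 3.83e-08). HES4, its neighbour, was not called. NALT1, a noncoding gene on the opposite strand 349 bases from NOTCH1, held 128, 90 and 98 counts in control and 73, 123 and 104 in 25(OH)D and, like NOTCH1, was not called (log2 fold change 0.06, edgeR adjusted p = 0.853). FAM120B, next to DLL1, was not called at a log2 fold change of 0.11 (edgeR adjusted p = 0.168), while DLL1 fell. Among the 52 genes of the longer list with at least 1 RefSeq promoter window, 16 had a window with TGGGAA, 6 with GTGGGAA, 24 with CACNAG and 0 with the vitamin D receptor repeat. Several of these genes had more than 1 window, so these counts of genes cannot be set beside the shares of single windows given above. The HES7 window held 0 matches of TGGGAA.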
